A study of Schizosaccharomyces pombe with 6 samples.

Results

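The mating-type region of fission yeast (Schizosaccharomyces pombe) was taken as all genomic probes of chromosome II centred between 2075000 and 2175000, an interval that holds the mat1 and mat3 cassettes and their flanks. It holds 314 of the 42641 probes on the array, and 89 of its 100 bins of 1 kb had at least 2 probes measured on every array, against 11904 such bins in the genome. The members were chosen by position alone. Rad52 was mapped by chromatin immunoprecipitation on 6 tiling arrays with 2 colours each, 3 of cdc25-22 cells that also lacked rad3 (cdc25-22 rad3∆, here rad3-deleted) and 3 of cdc25-22 cells with rad3 present. Both strains carry cdc25-22, a temperature-sensitive allele of the phosphatase that starts mitosis. Cells of both were held at 36.5 °C during a block of 4 h, shifted to 25 °C for release, and given 6 mM hydroxyurea, a drug that depletes nucleotides for DNA synthesis. The labels do not say whether arrays of one strain came from separate cultures, so p-values measure only the spread between these arrays, which may be technical.

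Fission yeast switches mating type by copying a silent cassette into mat1. The expressed cassette at mat1 decides the mating type, while the silent cassettes further along the chromosome lie in heterochromatin and serve as templates. An imprint on 1 strand at the right side of mat1 turns into a break when a replication fork reaches it, DNA just to the right of mat1 is needed to form that imprint, and homologous recombination repairs the break. Rad52 acts in homologous recombination at broken or stalled DNA and is used as a mark of it, and Rad3, the ATR kinase of this yeast, directs the checkpoint that protects forks stalled by hydroxyurea.

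The reference genome used for annotation (RefSeq, ASM294v3) carries an M cassette at both sites and has no mat2 annotated. Its mat1 genes are mat1-Mi (2114219 to 2114347, minus strand) and mat1-Mc (2114482 to 2115027, plus strand), and its mat3 genes are mat3-Mi (2132586 to 2132714, minus strand) and mat3-Mc (2132849 to 2133394, plus strand). An identical stretch of 1323 bp occurs at mat1 (2114100 to 2115422) and at mat3 (2132467 to 2133789). The array has 0 probes inside either copy, so the cassettes themselves were not measured: the gap between neighbouring probes is 1480 bp at mat1 and 1777 bp at mat3. The mating type of the 2 strains is not given in the sources used here. The edges of the shared stretch are shown because they mark where the measured DNA ends on each side. Capitals mark the shared stretch, all are on the plus strand of ASM294v3, and the left edges span chrII:2114070-2114129 (mat1) and chrII:2132437-2132496 (mat3), the right edges chrII:2115393-2115452 (mat1) and chrII:2133760-2133819 (mat3).
mat1 left edge: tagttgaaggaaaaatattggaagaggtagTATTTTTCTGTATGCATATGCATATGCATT
mat3 left edge: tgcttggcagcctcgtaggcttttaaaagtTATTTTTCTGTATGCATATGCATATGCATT
mat1 right edge: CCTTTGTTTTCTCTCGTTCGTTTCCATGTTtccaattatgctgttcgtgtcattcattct
mat3 right edge: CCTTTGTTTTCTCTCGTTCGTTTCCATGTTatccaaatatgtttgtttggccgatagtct

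The other sequences are shown because results turn on them. The 300 bases right of the shared stretch at mat1 (chrII:2115423-2115722, plus strand, RefSeq ASM294v3) contain the position of a probe whose DNA signal was at background in rad3-deleted cells, and capitals mark that position.
right of mat1: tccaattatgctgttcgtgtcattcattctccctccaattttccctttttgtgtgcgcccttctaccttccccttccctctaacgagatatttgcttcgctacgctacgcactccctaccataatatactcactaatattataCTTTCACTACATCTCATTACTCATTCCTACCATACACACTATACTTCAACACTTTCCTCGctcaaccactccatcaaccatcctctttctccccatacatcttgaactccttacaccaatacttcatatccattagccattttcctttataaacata
The 300 bases richest in A+T between nif1 and sui1 (chrII:2104571-2104870, plus strand, RefSeq ASM294v3, 80% A+T) lie under the largest Rad52 difference of the region. Capitals mark runs of 6 or more A or of 6 or more T, of which there are 2, and 23.9% of the 41905 windows of 300 bases in the genome hold as many.
nif1 to sui1, most A+T: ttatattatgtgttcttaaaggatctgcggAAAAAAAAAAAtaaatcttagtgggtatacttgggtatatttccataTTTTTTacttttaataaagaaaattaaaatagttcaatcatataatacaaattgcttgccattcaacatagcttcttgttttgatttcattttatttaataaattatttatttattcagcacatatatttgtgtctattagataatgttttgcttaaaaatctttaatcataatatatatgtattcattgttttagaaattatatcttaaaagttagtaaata

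Which strain an array belongs to was taken from the deposited value table. Of its 6 columns, 5 equal a scanner file within 0.001 log2, but only 1 equals the file listed for the same sample: the files listed as replicates 1 and 2 are exchanged between the strains. The files are used here under the sample whose column they equal, called the matched placement, and the file of cdc25-22 replicate 3, which equals no column, was kept as listed. The deleted gene follows that placement on all arrays. Of 33 probes in rad3 (chromosome II, 904184 to 913629, plus strand), 9, 10 and 9 failed to rise well above background in either channel on the rad3-deleted arrays 1, 2 and 3, and 0, 0 and 0 on the cdc25-22 arrays. Every direction below rests on this placement, and results with the files as listed stand beside the main ones. The dimmest array was rad3-deleted replicate 2, whose input was not well above background at 51 of the 314 probes, against 1 to 10 on the other arrays. Such dim spots were kept in the fit used here, while outlier-flagged spots were left out. Flagged spots were most frequent on cdc25-22 replicate 3, at 21 of the 314 probes, against 0 to 6 on the other arrays. Of the 314 probes, 289 were measured on every array. No control immunoprecipitation was part of the 6 arrays, so enrichment by Rad52 cannot be told apart from unspecific enrichment. No dyes were exchanged, so a dye effect at a probe stays in its level.

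Across the region, Rad52 ratios were higher in rad3-deleted cells in 5 runs of 1 or more called bins. No bin was called lower in the fit used here. The highest run lay around the stretch between nif1 and sui1, to the left of mat1. Values are given on the log2 scale as immunoprecipitate over input, with the array median at 0. The limma fit called 12 of 89 bins higher in rad3-deleted cells, where 11.9% of all bins in the genome were called higher. It called 0 bins lower (11 had an unadjusted p under 0.05 in that direction), where 3.31% of all bins were called lower. The share of 13.5% called higher is thus near that of the whole genome. With the replicate number as a block, 15 bins were higher and 3 lower in the region. In the genome, 1696 were higher and 760 lower with that block. Centring on the array mean gave 12 higher and 2 lower in the region, and 1296 higher and 612 lower in the genome, against 1421 and 394 in the fit used here. Quantile normalization gave 12 higher and 1 lower in the region, and 1225 higher and 617 lower in the genome. Probe by probe, 23 of 289 were called higher in rad3-deleted cells, where 5.64% of all probes were, and in the immunoprecipitate alone 10 of 289 were higher, where 2.17% were. With the files as listed, limma called 0 bins in either direction in the region (0 at an unadjusted p under 0.05 higher, 1 lower) and 0% in the genome.

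**Figure D1:**
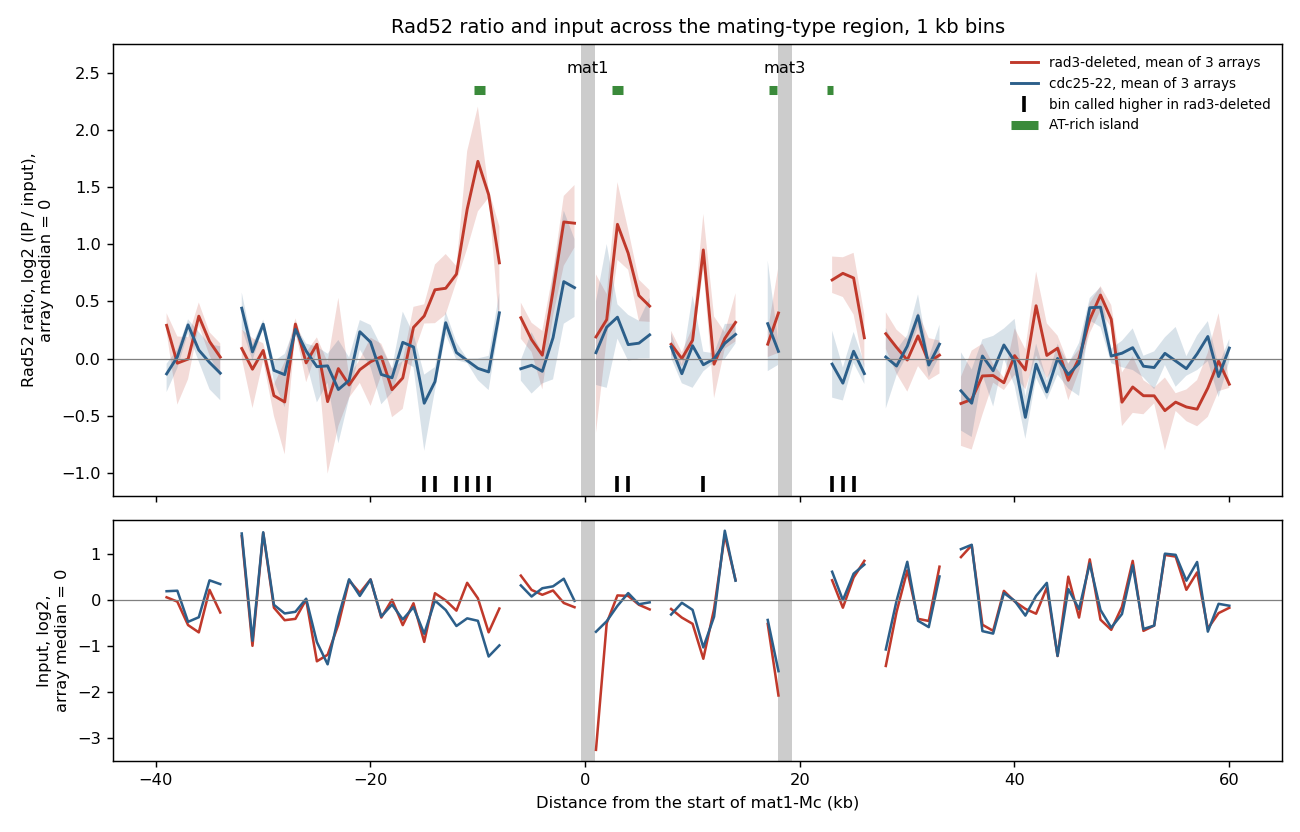
Rad52 log2 ratio (upper panel) and log2 input (lower panel) in 1 kb bins against the distance from the start of mat1-Mc in kb; lines are means of 3 arrays per strain and bands in the upper panel run from the lowest to the highest array. Black ticks mark the 12 bins called higher in rad3-deleted cells, green bars the 4 AT-rich islands, and grey columns the stretch shared by mat1 and mat3, where no probe lies.

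Averaged over the 89 bins, the ratio was 0.17, 0.15 and 0.21 on the rad3-deleted arrays 1, 2 and 3, and 0.06, 0.02 and 0.03 on the cdc25-22 arrays. The groups did not overlap: the means were 0.18 ± 0.03 in rad3-deleted cells and 0.04 ± 0.02 in cdc25-22 cells (SD, n = 3 each), a difference of 0.14. With quantile normalization the difference was 0.063. The exact two-sided permutation p was 0.1, the smallest that 3 against 3 arrays allow. Within slides, each of which held 1 array of both strains, the difference was 0.11, 0.12 and 0.19. With the files as listed, the means were 0.10 ± 0.10 in rad3-deleted cells and 0.11 ± 0.08 in cdc25-22 cells (SD, n = 3 each), and the difference was -0.02 (exact permutation p = 0.9). The rest of chromosome II, over 4224 bins, also had the higher mean in rad3-deleted cells, at 0.06 ± 0.00 against 0.01 ± 0.02 in cdc25-22 cells (SD, n = 3 each). Its median bin went the other way, with a difference of -0.04, against 0.07 for the median bin of the region. The higher mean thus does not describe the typical bin of the chromosome. After the rest of the chromosome was subtracted on each array, the region stood at 0.11, 0.09 and 0.15 on the rad3-deleted arrays and at 0.03, 0.02 and 0.04 on the cdc25-22 arrays, a difference of 0.09 (exact permutation p = 0.1). The centromeres of chromosomes II and III with 50 kb on each side went the other way over 218 bins. They averaged -0.00 ± 0.03 in rad3-deleted cells and 0.05 ± 0.01 in cdc25-22 cells (SD, n = 3 each, exact permutation p = 0.1). Both these bins and those of the region include gene-bearing flanks, so neither set is heterochromatin alone.

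The left flank averaged higher in rad3-deleted cells on every array. The right flank stood lower in them only after the mean of the rest of chromosome II was subtracted. The difference between the flanks was not tested. The 37 bins left of mat1-Mi averaged 0.29, 0.26 and 0.31 on the rad3-deleted arrays and 0.08, -0.03 and 0.10 on the cdc25-22 arrays, and the groups did not overlap (difference 0.24, exact permutation p = 0.1). The 15 bins from mat1-Mi to mat3-Mc averaged 0.32, 0.29 and 0.55 on the rad3-deleted arrays and 0.07, 0.31 and -0.00 on the cdc25-22 arrays. There cdc25-22 replicate 2 lay among the rad3-deleted arrays, and the difference of 0.26 had an exact permutation p of 0.2. These means include the bin from 2115001, whose value in rad3-deleted cells rests partly on a probe at background. The 37 bins right of mat3-Mc averaged -0.01, -0.03 and -0.02 on the rad3-deleted arrays and 0.04, -0.04 and -0.04 on the cdc25-22 arrays, which overlapped (difference -0.00, exact permutation p = 1.0). After the mean of the rest of the chromosome was subtracted on each array, the right flank stood at -0.07, -0.09 and -0.08 on the rad3-deleted arrays and at 0.01, -0.05 and -0.03 on the cdc25-22 arrays, without overlap (difference -0.06, exact permutation p = 0.1). That mean was itself higher in rad3-deleted cells. By the median bin, the right flank differed by -0.05, near the -0.04 of the rest of chromosome II. The left flank then differed by 0.18 (exact permutation p = 0.1) and the stretch between the cassettes by 0.21 (exact permutation p = 0.3). The bins called higher numbered 6 of 37 in the left flank (16.2%), 3 of 15 between the cassettes (20%) and 3 of 37 in the right flank (8.1%). Over all bins of the genome the share was 11.9%, and these shares were not tested against it.

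The highest ratio in rad3-deleted cells lay over the stretch between the protein-coding genes nif1 and sui1 (2103827 to 2105550). Nif1 is an inhibitor of the mitotic inducer kinase Cdr1, and sui1 encodes translation initiation factor eIF1. Both genes are transcribed away from this stretch, which also holds the long non-coding RNA SPNCRNA.387 and the end of SPNCRNA.5492, both on the plus strand. It is 1724 bp long and 72.9% A+T, against 64.1% for chromosome II. In the bin from 2104001 to 2105000 (5 probes) the ratio was 1.29, 1.68 and 2.20 on the rad3-deleted arrays and 0.00, -0.19 and -0.07 on the cdc25-22 arrays. No array of one strain reached those of the other, and the cdc25-22 arrays stood at or below the array median. The means were 1.72 ± 0.46 in rad3-deleted cells and -0.09 ± 0.10 in cdc25-22 cells (SD, n = 3 each), and the difference was 1.81 (SE 0.20, limma adjusted p = 4.22e-05). It ranked 68 among the 11904 bins of the genome. Within slides the difference was 1.29, 1.87 and 2.27.

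The neighbouring bins formed a run from 2102001 to 2106000. The bin from 2105001 to 2106000, over the start of sui1, stood at 1.41, 1.42 and 1.48 on the rad3-deleted arrays and at -0.10, -0.28 and 0.02 on the cdc25-22 arrays (difference 1.55, SE 0.15, limma adjusted p = 1.55e-05). The bin from 2103001 to 2104000, over the 5′ end of nif1, stood at 0.96, 1.14 and 1.81 on the rad3-deleted arrays and at -0.04, -0.00 and -0.01 on the cdc25-22 arrays (difference 1.32, SE 0.20, limma adjusted p = 0.000364). In all 3 bins the cdc25-22 arrays were close to the array median. The outermost bin of the run, from 2102001 to 2103000 inside nif1, had a difference of 0.69 (SE 0.14, limma adjusted p = 0.0046). Averaged over the 4 bins, the ratio was 1.30 ± 0.22 in rad3-deleted cells and -0.04 ± 0.06 in cdc25-22 cells (SD, n = 3 each).

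**Figure D2:**
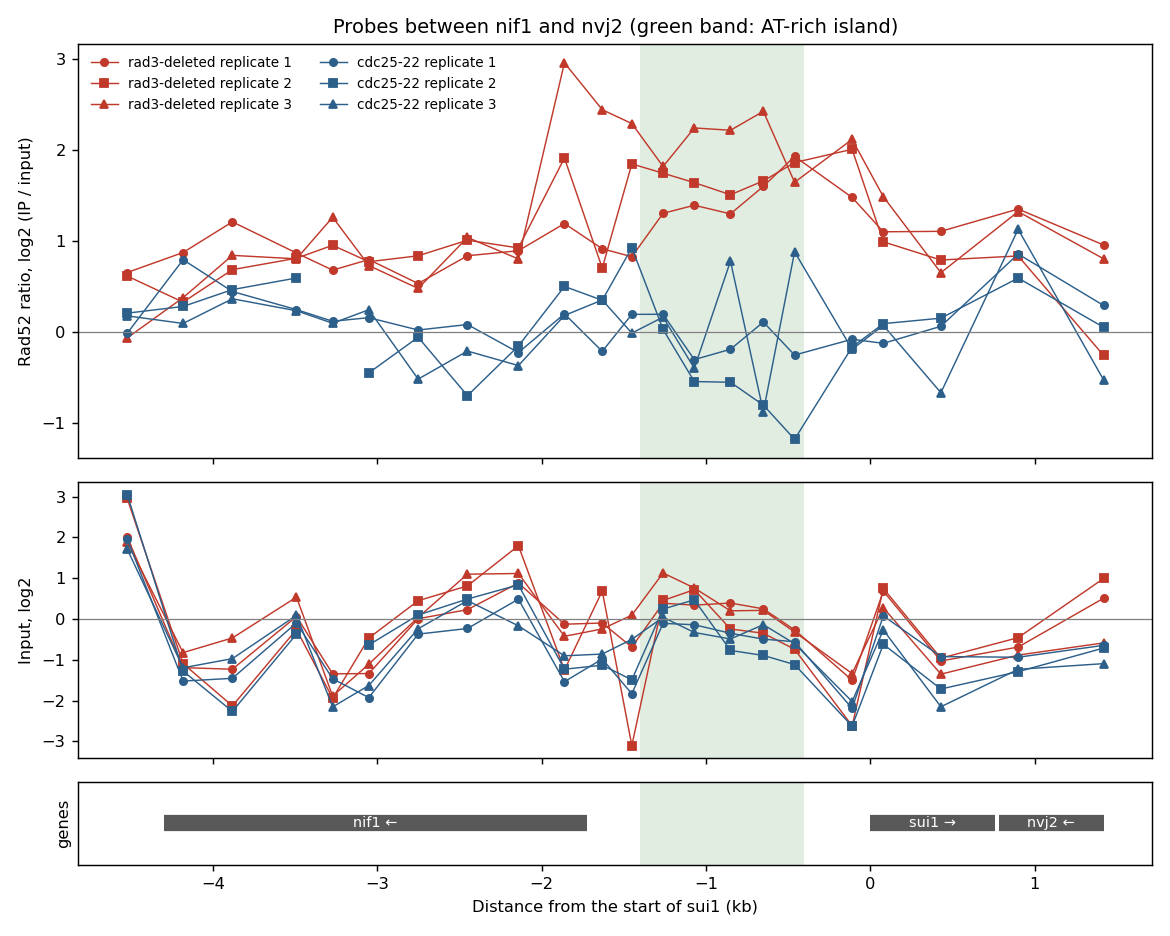
Log2 ratio and log2 input of each probe from nif1 to nvj2 on the 6 arrays, against the distance from the start of sui1 in kb; bars show the genes with their direction (nvj2 continues to the right) and the green band the AT-rich island. The rad3-deleted arrays lie above the cdc25-22 arrays at the probes in the band, and their input is also the higher at most of them.

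Both channels moved at this place. The immunoprecipitate alone, over the 4 bins, was 1.14 ± 0.30 in rad3-deleted cells and -0.72 ± 0.04 in cdc25-22 cells (log2 against the array median, SD, n = 3 each). The input was -0.15, -0.25 and 0.00 on the rad3-deleted arrays and -0.71, -0.64 and -0.63 on the cdc25-22 arrays, so that more input DNA was also measured there in rad3-deleted cells on all 3 slides. The input difference over the 4 bins was 0.53, and none of the 4 passed the test: across the region limma called 0 input bins in either direction (3 higher and 1 lower at an unadjusted p under 0.05), as it did in the genome (0%, with 209 higher and 54 lower unadjusted). The part of the input in the ratio difference was not tested. Since the ratio divides by the input, it is smaller than the difference in the immunoprecipitate, which was 1.87. Of the immunoprecipitate bins alone, 9 of 89 were higher in rad3-deleted cells, where 6.96% were in the genome, and 1 was lower, where 0.529% were. Of those 9 bins, 6 lie from 2100001 to 2107000 and the others start at 2117001, 2125001 and 2138001.

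A second run left of mat1 covered mti3 and ctr6. Only the bin from 2101001 parts it from the run at nif1 and sui1. That bin was not called (difference 0.30, SE 0.17, limma adjusted p = 0.23), but its mean in rad3-deleted cells was 0.61. Whether the 2 runs are separate was not tested. Mti3 is a mitochondrial translation initiation factor and Ctr6 a copper transporter of the vacuole. Over the run from 2099001 to 2101000 the ratio was 0.49, 0.58 and 0.39 on the rad3-deleted arrays and -0.25, -0.53 and -0.11 on the cdc25-22 arrays. The strains stood on opposite sides of the array median, without overlap. The difference was 0.76 (SE 0.18, limma adjusted p = 0.0103) in the bin from 2099001 and 0.80 (SE 0.16, limma adjusted p = 0.00406) in the bin from 2100001. Input over the run averaged -0.38 ± 0.13 in rad3-deleted cells and -0.37 ± 0.36 in cdc25-22 cells (SD, n = 3 each).

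**Figure D3:**
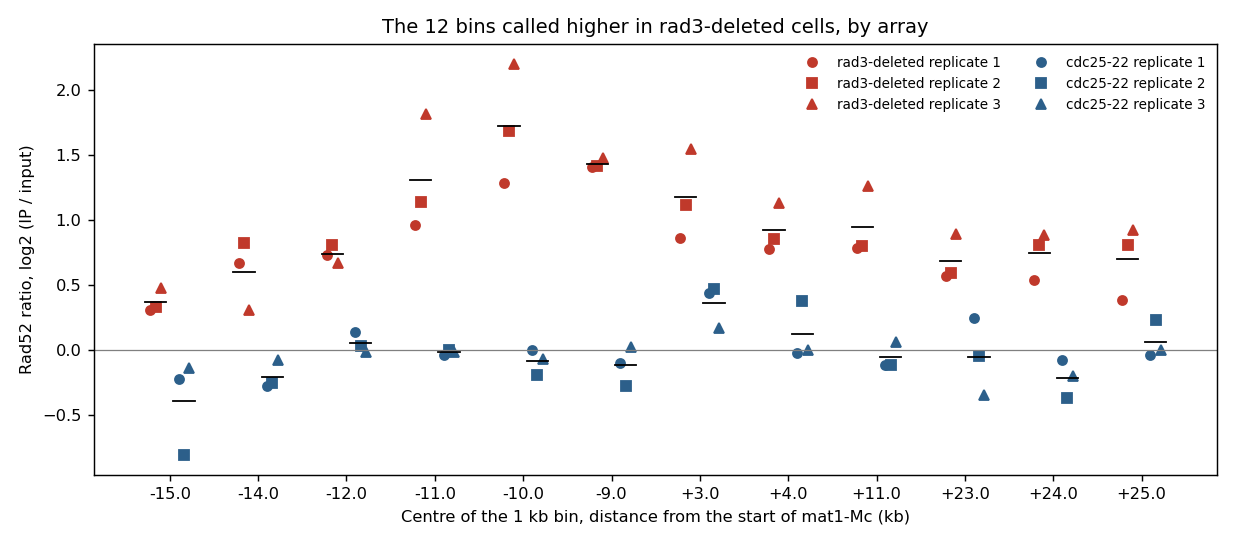
Log2 ratio on each array in the 12 bins called higher in rad3-deleted cells, placed by the distance of the bin centre from the start of mat1-Mc in kb; markers are arrays and black lines the means of 3. In every one of these bins the 3 rad3-deleted arrays lie above the 3 cdc25-22 arrays, and the highest rad3-deleted value is 2.20. The bins were called from these same arrays, so this separation follows largely from the choice and is not further evidence. Some bins that were not called also separate the strains, in both directions.

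In the DNA directly left of mat1 the ratio was above the array median on all arrays of both strains. That DNA lies in and beside the gene rga7. In the bin from 2112001 to 2113000 the ratio was 0.81, 1.42 and 1.35 on the rad3-deleted arrays and 0.31, 0.42 and 1.29 on the cdc25-22 arrays. In the bin from 2113001 to 2114000, the last one before mat1, it was 1.06, 1.52 and 0.97 on the rad3-deleted arrays and 0.36, 0.45 and 1.05 on the cdc25-22 arrays. The strains overlapped in both bins, because cdc25-22 replicate 3 stood among the rad3-deleted arrays. The differences of 0.52 (SE 0.24, limma adjusted p = 0.154) and 0.56 (SE 0.20, limma adjusted p = 0.0742) did not pass the test. Both passed without cdc25-22 replicate 3 (0.83 and 0.78, limma adjusted p = 0.0173 and 0.0193) and in the value table (0.81 and 0.90, limma adjusted p = 0.0143 and 0.0200), and the first also without rad3-deleted replicate 1 (0.71, limma adjusted p = 0.0441). With quantile normalization the differences were 0.05 and 0.14 (limma adjusted p = 0.907 and 0.692). Without dim probes the first bin kept fewer than 2 probes and could not be tested. By their 6-array means of 0.93 and 0.90 these were the 2 highest bins of the region, ranked 73 and 84 among the 11904. They were also the only 2 of 89 called enriched in cdc25-22 cells (a mean of 0.5 or more and a limma adjusted p under 0.05 against the array median), where 2.27% of bins in the genome were. Their cdc25-22 means were 0.67 (limma adjusted p = 0.045) and 0.62 (limma adjusted p = 0.0284), and without cdc25-22 replicate 1, 2 or 3 no bin of the region was called in that strain (0 each). In rad3-deleted cells 18 of 89 bins were called enriched by the same rule, where 13.1% were in the genome.

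On the right of mat1 the ratio was above the array median in both strains at an AT-rich island. The bin from 2115001 to 2116000 stood at 0.74, -0.65 and 0.48 on the rad3-deleted arrays and at -0.23, 0.50 and -0.12 on the cdc25-22 arrays, and these overlapped. Of its 2 probes, 1 was at background in rad3-deleted cells (its position is shown above in capitals), so the bin gives no measured level in that strain. The island (2117001 to 2118000, 75.2% A+T), between mat1-Mc and SPBC23G7.10C, had 3 probes. The bin over it stood at 0.86, 1.12 and 1.54 on the rad3-deleted arrays and at 0.44, 0.47 and 0.17 on the cdc25-22 arrays. All 6 arrays were above the median there and the strains did not overlap (difference 0.81, SE 0.18, limma adjusted p = 0.00721). That call was lost with quantile normalization (limma adjusted p = 0.0842) and in the value table (limma adjusted p = 0.294). The next bin, over the end of SPBC23G7.10C, had a difference of 0.80 (SE 0.17, limma adjusted p = 0.00436).

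At the right edge of mat1, 1 probe gave no signal above background in rad3-deleted cells. It covers 2115566 to 2115625, shown above in capitals. Its input was -5.99, -3.79 and -6.18 on the rad3-deleted arrays and -1.21, -0.52 and 0.61 on the cdc25-22 arrays (log2 against the array median). Its immunoprecipitate was -4.70, -4.66 and -5.27 on the rad3-deleted arrays and -1.40, 0.05 and -0.03 on the cdc25-22 arrays. The groups did not overlap in either channel. On the rad3-deleted arrays the probe was not well above background in both channels on 3 of 3, and on the cdc25-22 arrays it was well above background on 3 of 3, so its level in rad3-deleted cells is only a bound. Against the lowest signal well above background on each array, the immunoprecipitate was at least 4.66-fold lower in rad3-deleted cells than in cdc25-22 cells. The input was at least 6.49-fold lower. Limma was fitted to the measured signals, not to these bounds. It called the immunoprecipitate lower (limma adjusted p = 0.00423 over 40086 probes, of which 0.0274% were called lower) but not the input (limma adjusted p = 0.9999). Of 42641 probes, 9 showed this pattern in both channels on all arrays, 7 of them in rad3, this one in the mating-type region and 1 on chromosome III. The reverse pattern was shown by 0 probes. The log2 ratio of this probe compares 2 signals at background on the rad3-deleted arrays, and with it the bin from 2115001 was the 1 immunoprecipitate bin called lower.

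The probes on both sides of it overlapped between the strains in input. The next probe to the right (2115739 to 2115798) had input of -1.90, -0.62 and -1.05 on the rad3-deleted arrays and -1.54, -0.80 and -0.69 on the cdc25-22 arrays, which overlapped. The nearest probe on the left of the cassette (2114026 to 2114085) had low input on all arrays, at -2.65, -3.75 and -3.73 on the rad3-deleted arrays and -2.52, -3.59 and -3.82 on the cdc25-22 arrays. Its ratio was 0.76, 1.15 and 1.08 on the rad3-deleted arrays and 0.22, 1.87 and 1.33 on the cdc25-22 arrays, which also overlapped.

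**Figure D4:**
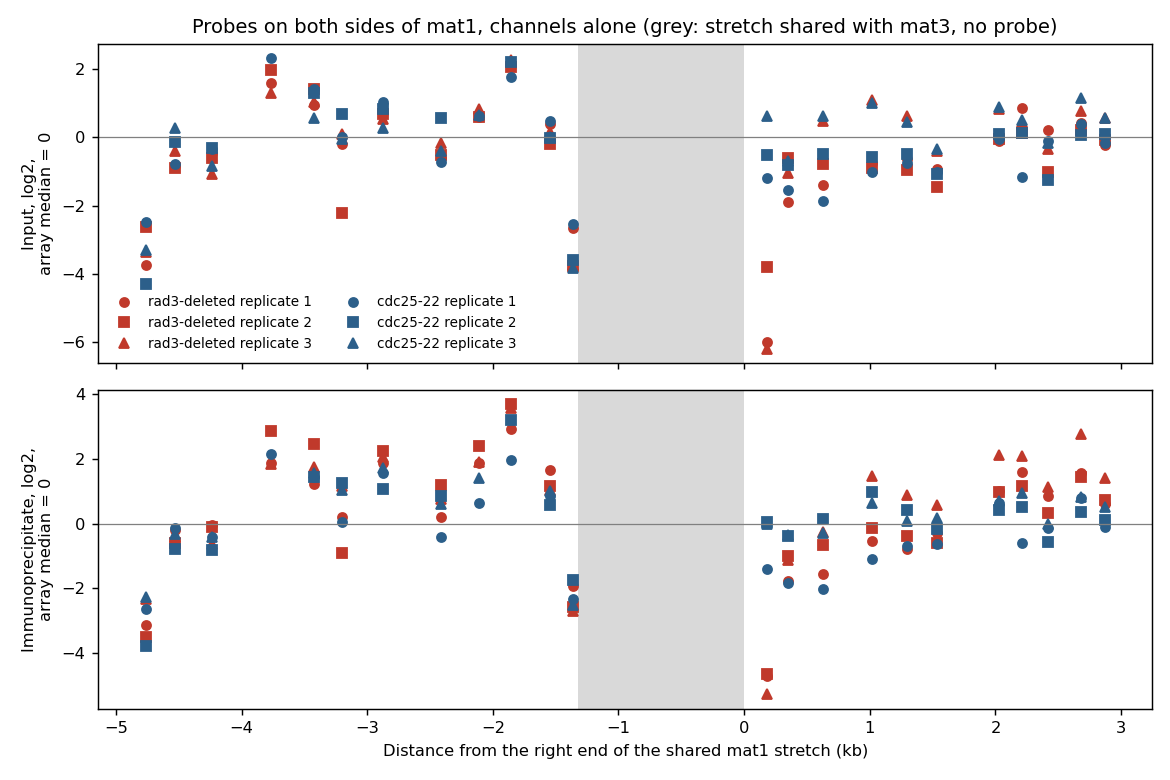
Log2 input (upper panel) and log2 immunoprecipitate (lower panel) of the probes around mat1 on the 6 arrays, against the distance in kb from the right end of the stretch shared with mat3 (grey, no probe). At the first probe right of mat1 the 3 rad3-deleted arrays lie between -6.18 and -3.79 in input and the 3 cdc25-22 arrays between -1.21 and 0.61.

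Besides the called bins at and beside the AT-rich island, 1 bin between the cassettes was called higher in rad3-deleted cells. It lay over the start of SPBC23G7.13C and the DNA beside it (2125001 to 2126000, 3 probes). Its ratio was 0.79, 0.80 and 1.26 on the rad3-deleted arrays and -0.11, -0.11 and 0.06 on the cdc25-22 arrays. The strains did not overlap, and the bin on neither side was called (difference 1.004, SE 0.17, limma adjusted p = 0.000816). Without dim probes it kept fewer than 2 probes and could not be tested. Its input was low in both strains, at -1.28 ± 0.07 in rad3-deleted cells and -1.03 ± 0.15 in cdc25-22 cells (SD, n = 3 each). Over all 15 bins between mat1-Mi and mat3-Mc, input was -0.49, -0.60 and -0.35 on the rad3-deleted arrays and -0.39, -0.33 and 0.05 on the cdc25-22 arrays, below the array median on all but cdc25-22 replicate 3. The bin with the lost probe is among these 15.

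At mat3 no difference between the strains was called at the measured edges. The bin from 2132001 to 2133000, left of the cassette, stood at 0.34, 0.05 and 0.81 on the rad3-deleted arrays and at 0.14, -0.05 and 0.10 on the cdc25-22 arrays (difference 0.34, SE 0.18, limma adjusted p = 0.231). In this bin, 2 rad3-deleted arrays were above every cdc25-22 array and 1 was not. The bin from 2134001 to 2135000, right of it, stood at -0.47, -0.40 and -0.29 on the rad3-deleted arrays and at -0.06, -0.20 and 0.05 on the cdc25-22 arrays (difference -0.32, SE 0.15, limma adjusted p = 0.16). Repeated sequence beside mat3 carries few probes. Of 5 gaps of over 1 kb in the region, the one from 2129229 to 2131293 has 99.5% of its 60-base words elsewhere in the reference, and the one from 2134833 to 2137278 has 84.1%.

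Right of mat3, a run from 2137001 to 2140000 covered emc3, a subunit of the complex that inserts proteins in the endoplasmic reticulum membrane, and the start of mtd1, a gene of folate metabolism. Its ratio was 0.50, 0.74 and 0.90 on the rad3-deleted arrays and 0.04, -0.06 and -0.18 on the cdc25-22 arrays. The strains did not overlap. The middle bin had the largest difference of the run, 0.96 (SE 0.16, limma adjusted p = 0.000776). The outer ones were at 0.74 (SE 0.17, limma adjusted p = 0.0105) and 0.64 (SE 0.17, limma adjusted p = 0.0204). The call of the first was lost in the value table (limma adjusted p = 0.0815). That of the last was lost in the value table (limma adjusted p = 0.0962), with the normexp background (limma adjusted p = 0.0508), and without any one of rad3-deleted replicates 2 and 3 (limma adjusted p = 0.0905 and 0.0745) and cdc25-22 replicates 1 and 3 (limma adjusted p = 0.0986 and 0.0625).

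AT-rich islands, a sequence feature common at replication origins of this yeast, were defined as merged windows of 500 bp with at least 75% A+T. The region has 4. The island between nif1 and sui1 (2104151 to 2105150) averaged 1.76 ± 0.29 in rad3-deleted cells and -0.20 ± 0.37 in cdc25-22 cells (5 probes, SD, n = 3 arrays each). Its difference of 1.95 ranked 8 among the 154 islands of chromosome II that hold a probe, whose median difference was 0.52. The island right of mat1 had a difference of 0.81 and ranked 52. The island right of mat3 (2137051 to 2137550, 1 probe) had 0.75 and ranked 58. The island left of mat3 (2131651 to 2132400, 4 probes) averaged 0.32 ± 0.25 in rad3-deleted cells and 0.20 ± 0.22 in cdc25-22 cells (SD, n = 3 each), and its difference of 0.12 ranked 116. Of the 12 called bins, 4 overlap an island. The runs over mti3 and ctr6 and at SPBC23G7.13C, and the signal left of mat1, do not. The 13 probes centred in islands had a median difference of 0.86 (from -0.33 to 2.42), and the 301 others one of 0.03 (from -0.82 to 2.02).

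The region holds 49 protein-coding genes, of which 40 had at least 2 probes inside. The 4 mating-type genes annotated there have none. Of the other genes next to the cassettes, rpp202, the gene of a ribosomal protein left of mat3, has 1 probe and was not tested. Limma called 8 of the 40 genes higher in rad3-deleted cells, where 10.8% of 4126 genes were. It called 0 lower (3 at an unadjusted p under 0.05), where 5.11% were. The genes next to the nif1 to sui1 stretch had the highest differences. Sui1 stood at 1.11, 0.89 and 1.07 on the rad3-deleted arrays and at -0.03, 0.12 and -0.30 on the cdc25-22 arrays (difference 1.09, SE 0.13, limma adjusted p = 0.000563). Nif1, with 9 probes, stood at 0.90, 0.91 and 1.01 on the rad3-deleted arrays and at 0.22, 0.06 and 0.00 on the cdc25-22 arrays (difference 0.85, SE 0.11, limma adjusted p = 0.000793). The rad3-deleted arrays differed from each other by far less than from the cdc25-22 arrays at both genes. Emc3 averaged 0.79 ± 0.26 in rad3-deleted cells and 0.01 ± 0.05 in cdc25-22 cells (SD, n = 3 each, limma adjusted p = 0.00369).

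Of the other genes called, mti3 averaged 0.35 ± 0.12 in rad3-deleted cells and -0.39 ± 0.24 in cdc25-22 cells, and ctr6 averaged 0.55 ± 0.30 in rad3-deleted cells and -0.12 ± 0.10 in cdc25-22 cells (SD, n = 3 each, limma adjusted p = 0.00498 and 0.0131). The call of ctr6 was lost without rad3-deleted replicate 2 (limma adjusted p = 0.0657) or cdc25-22 replicate 1 (limma adjusted p = 0.0633). Nvj2 (related to a lipid-binding protein of nucleus to vacuole contacts in budding yeast) and SPBC23G7.10C were barely past the threshold, with differences of 0.39 and 0.53 (limma adjusted p = 0.0469 and 0.0459), and lost the call under 9 and 7 of 12 alternatives. Atg2402, a sorting nexin of autophagy, lay far from the runs, in the right flank. It stood at 0.13, 0.18 and 0.54 on the rad3-deleted arrays and at -0.23, -0.34 and -0.32 on the cdc25-22 arrays, on opposite sides of the median (difference 0.58, SE 0.13, limma adjusted p = 0.0134), and its call was lost in the value table (limma adjusted p = 0.232).

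**Figure D5:**
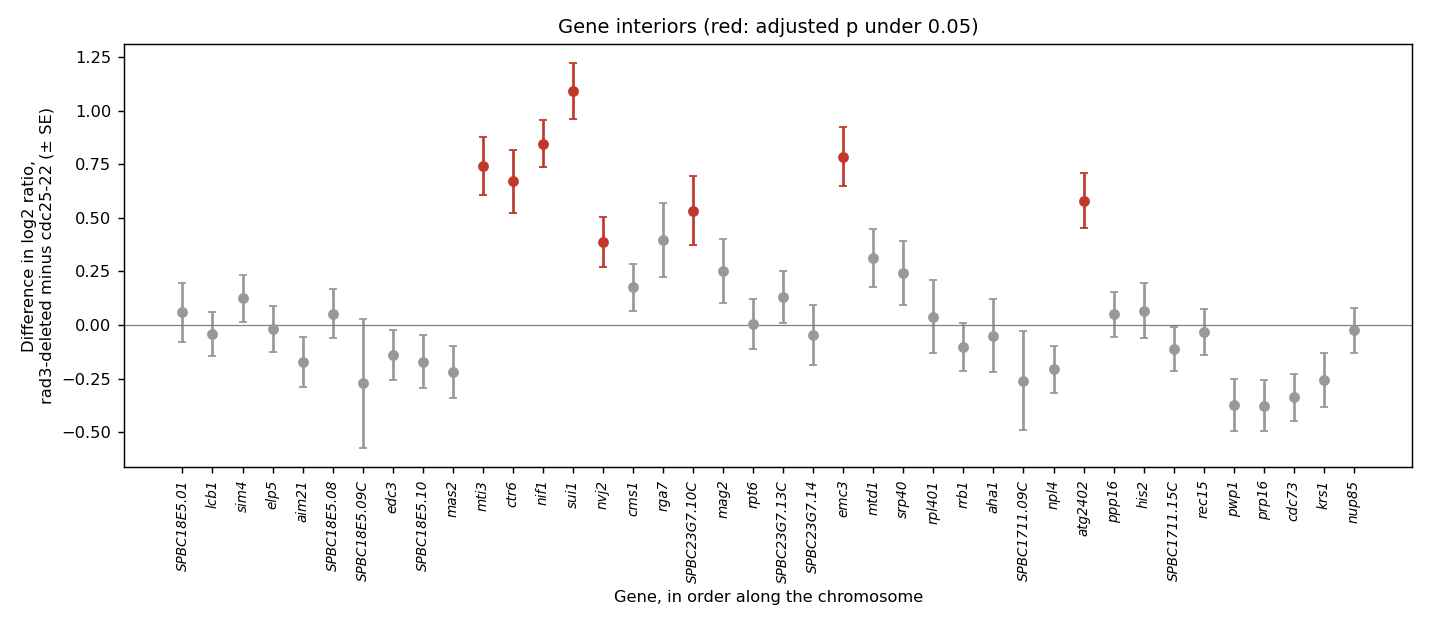
Difference in mean log2 ratio, rad3-deleted minus cdc25-22, for the 40 measured genes in chromosome order, with limma standard errors; red marks the 8 genes called higher in rad3-deleted cells. The genes from mti3 to sui1 lie between 0.67 and 1.09, and rec15 lies at -0.03.

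Rec15 was above the array median in both strains, and no difference between them was called in the fit used here. It encodes a protein needed for the breaks of meiotic recombination, and it overlaps SPBC1711.15C on the opposite strand, from which the array cannot tell it apart. Its ratio, from 2 probes, was 0.61, 0.60 and 0.74 on the rad3-deleted arrays and 0.70, 0.61 and 0.74 on the cdc25-22 arrays. All 6 arrays thus lay within a narrow range. The means were 0.65 ± 0.08 in rad3-deleted cells and 0.69 ± 0.07 in cdc25-22 cells (SD, n = 3 each; limma adjusted p = 0.000126 and 0.0026 against the array median), and the difference was -0.03 (SE 0.11, limma adjusted p = 0.843). With quantile normalization the difference was -0.40 and passed the test (limma adjusted p = 0.0498). Rec15 and SPBC1711.15C were the only 2 genes of the 40 called above the median in cdc25-22 cells, where 2.01% of all genes were. In rad3-deleted cells 12 were called above it, where 20.1% of all genes were, and 4 below it, where 20.5% were. The 12 include mag2, the gene of a DNA glycosylase right of mat1, at 0.46 ± 0.14 in rad3-deleted cells and 0.21 ± 0.28 in cdc25-22 cells, and rga7, at 0.76 ± 0.11 in rad3-deleted cells and 0.37 ± 0.38 in cdc25-22 cells (SD, n = 3 each). The 4 are pwp1, prp16, cdc73 and aha1. Over all 6 arrays limma called 5 of 89 bins enriched, where 2.08% were in the genome. They were the pair left of mat1 at rga7 and the bins from 2106001, 2117001 and 2162001. The last of them averaged 0.50 ± 0.15 (SD, n = 6) and holds only the end of rec15 (2161487 to 2162200). The bin from 2161001, which holds most of rec15, averaged 0.39 ± 0.12 (SD, n = 6), under the 0.5 needed for a call. The other bins among the 5 highest by 6-array mean were those from 2104001 at 0.82 and 2105001 at 0.66, where the 2 strains stood far apart.

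The right end of the region held the lowest differences. They lay in pwp1, a ribosome biogenesis gene, prp16, the gene of a splicing helicase, cdc73, the gene of a subunit of the Paf1 complex that travels with RNA polymerase II, and krs1, the gene of lysyl-tRNA synthetase. The bin from 2168001 in prp16 stood at -0.40, -0.17 and -0.80 on the rad3-deleted arrays and at -0.06, 0.19 and 0.01 on the cdc25-22 arrays (difference -0.50, SE 0.18, limma adjusted p = 0.0692). The bin from 2171001, over cdc73 and krs1, stood at -0.19, -0.59 and -0.55 on the rad3-deleted arrays and at 0.02, -0.10 and 0.20 on the cdc25-22 arrays (difference -0.48, SE 0.16, limma adjusted p = 0.0587). The strains did not overlap in either bin, and with the replicate block both passed the test (limma adjusted p = 0.0322 and 0.0374), as they did with the normexp background (limma adjusted p = 0.0410 and 0.0418) and array-mean centring (limma adjusted p = 0.0482 and 0.0407). With the block, so did the bin from 2172001 in krs1 (difference -0.45, limma adjusted p = 0.0389, against 0.0968 without the block). The bins from 2164001 and 2169001 completed the 5 lowest, at -0.43 and -0.36, and the first of these passed without rad3-deleted replicate 3 (limma adjusted p = 0.0379). Not all lower calls of the alternatives lay at the right end. The bin from 2082001, over rpl1001 and elp5 in the left flank, had a difference of -0.35 (SE 0.15, limma adjusted p = 0.137). It was the 1 bin called lower with quantile normalization, and it was also called lower with the normexp background. As a whole gene, prp16 averaged -0.44 ± 0.11 in rad3-deleted cells and -0.06 ± 0.15 in cdc25-22 cells (SD, n = 3 each, limma adjusted p = 0.0566, and 0.0363 with the block). Cdc73 averaged -0.45 ± 0.10 in rad3-deleted cells and -0.11 ± 0.09 in cdc25-22 cells (SD, n = 3 each, limma adjusted p = 0.0624).

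The lowest levels over all 6 arrays lay in the right flank and in aim21. They were -0.37 ± 0.33 from 2150001 and -0.34 ± 0.30 from 2149001, both in aha1, a gene of an activator of the chaperone Hsp90, -0.31 ± 0.28 from 2155001 in atg2402, -0.26 ± 0.33 from 2086001 in aim21 and -0.26 ± 0.21 from 2170001 in cdc73 (SD, n = 6 each). None of these 5 bins passed the limma test of the difference between the strains in the fit used here, and the one from 2155001 passed with quantile normalization (difference 0.48, limma adjusted p = 0.0434).

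Genes elsewhere in the genome that act in switching or in silencing the cassettes were set beside the region. Of 27 on the list, 23 were measured, and limma called 1 higher and 0 lower in rad3-deleted cells, where 10.8% of all genes were higher and 5.11% lower. Their median difference was -0.02, and that of all 4126 genes -0.06. The 1 called was rbx1, a subunit of cullin ubiquitin ligases, at 0.69 ± 0.28 in rad3-deleted cells and -0.23 ± 0.15 in cdc25-22 cells (SD, n = 3 each, limma adjusted p = 0.00269). The ratio over rad52 itself was 0.29 ± 0.19 in rad3-deleted cells and 0.26 ± 0.12 in cdc25-22 cells (SD, n = 3 each, limma adjusted p = 0.899).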

How the data were processed

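DNA from Rad52 immunoprecipitates (green) and from input (red) of 6 samples was hybridised to arrays, 2 per slide on 3 slides. The authors' scanner files came from Agilent Feature Extraction 10.7.3.1, per the submitters' processing notes. Its settings were those for CGH on the first slides and those for ChIP on slide 3, per the file headers. The intensity values used are processed signals: per the file headers, the software had subtracted the background and scaled the dyes linearly. The deposited log10 ratio was not used. Set against the scanner files, the deposited table proved to give the ratio on a linear scale.

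Processed green signal was divided by red and put on the log2 scale, without control spots and outlier-flagged spots. Each array was centred on its median, and probes were averaged in 1 kb bins and in genes with at least 2 probes. limma 3.58.1 (R 4.3.3) fitted all bins, genes or probes with 1 mean per strain, adjusted by Benjamini-Hochberg at 0.05. Means over bins were compared by exact permutation tests in Python 3.11.15 (numpy 2.4.6, pandas 2.3.3, matplotlib 3.10.9). The alternatives were the value table, the replicate block, normexp (offset 50, on median signals, since no mean signals were in the files), array-mean centring, quantile normalization, no dim probes, other bin widths, each array left out and, added after the data were seen, removal of a G+C trend.

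The headers name an older genome version than ASM294v3. Probe positions fitted ASM294v3 best with a shift of 0 bp in all 4 segments of the region, by G+C share, and no probe sequences were aligned. Genes in segments of the genome where positions did not coincide (741) were left out. Bins were named if among the 5 highest or lowest by 6-array mean or by difference or nearest to a cassette. The other bins were named after their values were seen. Genes were named if called in the difference or in a strain's level, if next to a cassette or in one, and rec15 always. The replicate number is the slide, and deviations of same-numbered arrays correlated at 0.28, 0.20 and 0.18, so the number pairs them. The limma fit used here and the exact permutation tests did not use this pairing, whereas the replicate block did. The number of arrays limits the precision. The region, the lists and the tests were chosen with earlier results of these data known.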

Additional observations from a re-analysis of the deposited data

Results flagged for a closer look

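The value-table column of cdc25-22 replicate 3, which equals no scanner file and was used only in the value-table alternative, stood higher than the cdc25-22 scanner arrays by over 0.5 in 2 of the 12 called bins. In the bin from 2104001, between nif1 and sui1, it was at 0.68, against a highest value of 0.00 among the cdc25-22 scanner arrays and a lowest of 1.29 among the rad3-deleted ones. In the bin from 2117001, right of mat1, it was at 1.30, against a highest cdc25-22 value of 0.47, and lay above the lowest rad3-deleted array (0.86).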

How the results depend on the processing

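The count of 12 bins called higher varied from 10 to 16 over all alternatives, including removal of a trend with probe G+C share, which was added after the data were seen (12), and the replicate block (15). A like count did not always mean the same bins. The value table also gave 12, but there the bins from 2117001, 2137001 and 2139001 were not called. Those from 2112001 and 2113001 were called in it instead. Bins called lower were 0 in the fit used and 3 with the replicate block, 3 with normexp, 3 in 2 kb bins, 2 with array-mean centring, 1 with quantile normalization and 0 to 2 without 1 array. The mean difference of 0.14 was 0.096 with array-mean centring, 0.063 with quantile normalization and 0.12 to 0.16 without 1 array. With files as listed, the value table, whose columns carry the labels, gave 12 bins higher and a mean difference of 0.14, and the scanner files gave -0.07 to 0.02 without 1 array. Enriched bins in rad3-deleted cells (18) were 36 in 500 bp bins, 10 in 2 kb bins and 17 to 19 without 1 array. In cdc25-22 cells (2) they were 0 in the value table, 7 with quantile normalization, 4 with normexp, 4 in 500 bp bins, 1 in 2 kb bins and 0 to 2 without 1 array. Over 6 arrays (5) they were 3 without dim probes, 13 in 500 bp bins, 3 in 2 kb bins and 0 to 6 without 1 array (0 without rad3-deleted replicate 1, 2 without rad3-deleted replicate 2, 3 without rad3-deleted replicate 3 or cdc25-22 replicate 1). Immunoprecipitate calls in either direction (10) were 19 with the replicate block, 6 with normexp and 5 to 8 without 1 array (5 without cdc25-22 replicate 1 or 3, 6 without rad3-deleted replicate 2). Genes called (8) were 5 to 9 without 1 array, with 5 without rad3-deleted replicate 2 or cdc25-22 replicate 1. No called bin or gene changed direction. The bin widths change the number of bins tested; the causes of the other changes were not tested. Dim input on rad3-deleted replicate 2, flagged spots on cdc25-22 replicate 3 and the missing cassette probes limit the measurements.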

Other observations

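Input just right of mat1 differed between slides in both strains. At the probes starting at 2116022, 2116407 and 2116693, the input on slide 3, whose files name another setting of the scanner software, was higher than the mean of slides 1 and 2 by 1.58, 1.90 and 1.43 log2 in rad3-deleted cells and by 1.82, 1.80 and 1.07 log2 in cdc25-22 cells. At the next probe, from 2116928, it was higher by 0.79 in rad3-deleted cells and 0.69 in cdc25-22 cells. The ratio at these 4 probes was between -0.69 and 1.05 on the rad3-deleted arrays and between -0.90 and 1.55 on the cdc25-22 arrays. The probe outside rad3 and the mating-type region that had lost signal in both channels on the 3 rad3-deleted arrays lies on chromosome III at 1805255 to 1805314.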
